A study of Mus musculus with 14 samples.

Results

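Slow-growing plexiform neurofibromas (PNs) were compared with control dorsal root ganglia (DRGs) in bulk RNA-seq of 8 libraries, 5 of slow-growing PN and 3 of control, out of 14 in the series. Members were chosen by the sample type that the labels give, and no measured value entered that choice. The remaining 6 libraries, of fast-growing PN, were used only where named. The comparison asks which transcripts differ between a PN whose volume is nearly stable and the tissue in which PNs arise. The 3 controls (DRG3, DRG4 and DRG5) were DRGs of Nf1fl/fl mice, collected with nerves. The 5 PNs (1079, 1198A, 1202, 1203 and 1206) came from DhhCre;Nf1fl/fl mice, in which Cre driven by the desert hedgehog promoter deletes Nf1 in the Schwann cell lineage, so that all other cells of the PN kept an undeleted gene. All mice carried the floxed Nf1 alleles, were of a mixed C57BL/6, I-129 and FVBN background, received no drug, and were adults of both sexes. The methods give 9 months as the age at collection, and a figure legend speaks of PNs of 7 months. A PN counted as slow-growing when its volume changed by less than 5 mm3 between MRI scans at 7 and 9 months, and as fast-growing above 35 mm3. The labels number each library differently but do not say that each came from its own animal, so p-values measure the spread between these libraries. Sex and preparation batch per library were not given in the sources used here. Freezing before extraction is stated for PNs alone, so preparation and tissue cannot be told apart.

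Neurofibromin, the product of Nf1, is a GTPase-activating protein that switches RAS off, and its loss in Schwann cells is the initiating event of neurofibromas. A PN holds Schwann cells that have lost contact with axons, fibroblasts and perineurial cells in collagen-rich matrix, mast cells, macrophages and vessels. A DRG holds the cell bodies of sensory neurons, each wrapped by satellite glia, with myelinating and nonmyelinating Schwann cells along the axons. Neighbouring muscle and brown fat lie close to both tissues.

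The libraries held 9596773 to 13439253 counts over 24062 genes, so that 3 counts correspond to 0.223 to 0.313 CPM, counts scaled to a common library total. The defining markers of the tissue were present: summed CPM of 22 sensory neuron genes was 915 to 2270 in controls and 1570 to 7850 in PNs, and that of 19 myelin genes was 5270 to 15500 and 7330 to 25100. DRG3 stood apart from DRG4 and DRG5. Its summed MHC class II level was 372 CPM against 3320 in DRG4 and 2600 in DRG5, and its lymphocyte level was 12.5 against 579 and 437. The ribosomal RNA precursor Rn45s took 16.2% to 17.6% of the counts in controls and 3.48% to 15.3% in PNs. Xist, transcribed from the inactive X chromosome, was at 2320 CPM in DRG5, 3490 in 1198A and 2760 in 1206 and at most 10.3 in the other 5 libraries, so that both groups held both patterns.

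Nf1 itself was not called. It was at 228, 158 and 132 CPM in DRG3, DRG4 and DRG5, and at 256, 244, 220, 280 and 252 CPM in PNs 1079, 1198A, 1202, 1203 and 1206. The groups overlapped only through DRG3, which lay above PN 1202. The log2 fold change was 0.54 (SE 0.21, adjusted p = 0.127, quasi-likelihood F test of edgeR, Benjamini-Hochberg adjusted over all genes), and without DRG3 it was called (adjusted p = 0.0317). The count covers all exons of the gene and all cells of the tissue, so it does not measure the deletion.

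Of 15714 genes tested, 1769 were called at an adjusted p under 0.05, or 11.3%. Lower expression in PN was more frequent, with 1121 genes called lower (7.13%) and 648 called higher (4.12%). The CPM of the groups did not overlap for 1546 higher genes (9.84%) and 2113 lower genes (13.4%), and 1702 of the called genes were among these. The median log2 fold change over all tested genes was 0.038. When the muscle and adipocyte levels of each library, as 2 scores, were entered as covariates, edgeR called 0 genes with 4 residual degrees of freedom in place of 6. In that fit 1158 genes (7.37%) had an unadjusted p under 0.05, against 4765 in the main fit. Of the 1769 genes, 99.9% kept their sign. The number called was 599 without DRG5, 685 without DRG4, 957 without 1079, 1052 without 1202 and 2454 without DRG3. Below, a call is said to be lost or kept over the 8 fits that each left out 1 library. Numbers of list members with an unadjusted p under 0.05 stand beside 4765 of all 15714 tested genes.

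**Figure D1:**
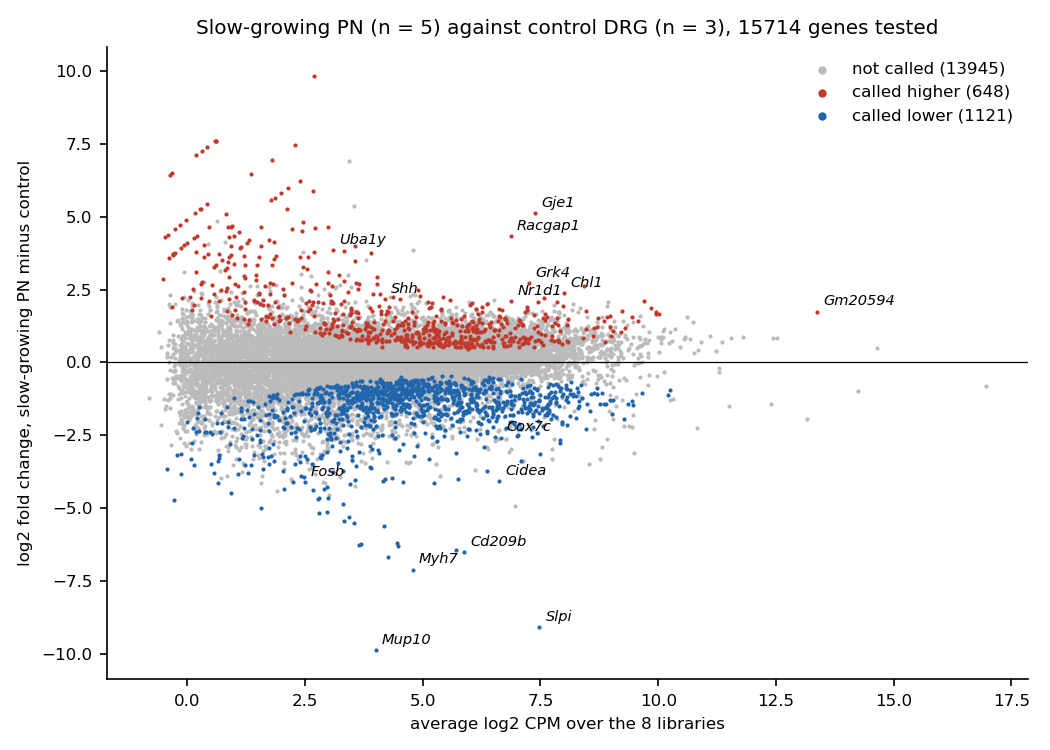
Log2 fold change of slow-growing PN over control (y axis) against average log2 CPM over the 8 libraries (x axis) for the 15714 tested genes. Red points are the 648 genes called higher and blue points the 1121 called lower, with the largest labelled fall at -9.87 for Mup10 and the largest labelled rises at 5.11 for Gje1 and 4.32 for Racgap1.

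The largest rises were the 10 highest fold changes among the 457 called, non-overlapping rises with an average log2 CPM of at least 3. Racgap1, a GTPase-activating protein of the cytokinetic midzone (chromosome 15, 99620496 to 99651656, GRCm38, minus strand), was at 6.44, 8.82 and 11.9 CPM in controls and at 194, 187, 165, 159 and 202 CPM in PNs. Every PN was thus far above every control, with a log2 fold change of 4.32 (SE 0.26, adjusted p = 0.000522, edgeR). Kif23, the kinesin that forms the centralspindlin complex with it, was at 4.12, 10.9 and 16.7 CPM in controls and 9.42, 3.60, 6.09, 12.1 and 2.10 CPM in PNs (chosen after its values were seen). Its groups overlapped, and it was not called (adjusted p = 0.469). All 10 rises kept their call in all 8 fits.

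Grk4, a kinase of G protein-coupled receptors (chromosome 5, 34660379 to 34755305), was at 32.7, 35.5 and 33.0 CPM in controls and 225, 232, 204, 232 and 225 CPM in PNs. The highest PN was 1.14 times the lowest, against 1.14 to 1.66 times over the 10 rises and a median of 1.46 over all 457, and the log2 fold change was 2.73 (SE 0.15, adjusted p = 0.000522, edgeR). A630075F10Rik, a long noncoding RNA that overlaps Tshz2 on the opposite strand, rose from 0.744 to 1.55 CPM in controls to 16.1 to 20.7 CPM in PNs. D330041H03Rik, a noncoding transcript antisense to Abca3, rose from 0.773 to 2.47 CPM to 19.6 to 25.3 CPM. Whether reads were counted by strand is not given in the sources used here, so reads of the antisense partners cannot be told apart. The others were 1700128F08Rik (a transcribed pseudogene), Acnat1 (an acyl-CoA amino acid N-acyltransferase gene), Btbd16, A430107P09Rik (annotated as a T cell receptor variable segment), D830005E20Rik and Uba1y. Their log2 fold changes were 2.79 to 3.85, and by the rule of choice the lowest PN lay above the highest control in each.

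Uba1y is annotated on the Y chromosome (818649 to 844224), yet its level did not follow the other Y-linked genes. It was at 12.0 CPM in 1198A and 15.8 CPM in 1206, where Ddx3y was at 0.301 and 0 CPM. In the male-pattern controls DRG3 and DRG4 it was at 1.03 and 0.759 CPM, where Ddx3y was at 49.4 and 64.2 CPM. A similar copy, Uba1, is on the X chromosome, so the assignment of these reads is uncertain.

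Noncoding and pseudogene models were more often called higher than coding ones. Of 740 noncoding RNA and other models tested, 14.2% were called higher, and of 129 pseudogenes 19.4%, beside 3.42% of 14691 protein-coding genes. For lower calls the shares were 5.0%, 3.1% and 7.33%. These shares are a description over genes of the same libraries.

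A pair of genes outside the 10 named rises was picked after their values were seen. Gje1, a connexin gene, was at 7.04, 7.40 and 8.19 CPM in controls, at 275, 326, 300 and 399 CPM in 1198A, 1202, 1203 and 1206, and at 4.75 CPM in 1079. A single PN was thus below all controls while the others were far above them, and the call (log2 fold change 5.11, adjusted p = 0.0289, edgeR) reached an adjusted p of 0.127 without DRG5 and 0.000558 without 1079. It was also lost without DRG3, DRG4, 1202 or 1206. In fast-growing PNs Gje1 ranged from 2.18 to 345 CPM. Gm20594, a predicted gene model, was at 3610, 4160 and 5110 CPM in controls and 10500, 15600, 13600, 9690 and 22300 CPM in PNs. All PNs were above all controls (log2 fold change 1.74, SE 0.40, adjusted p = 0.0292, edgeR, and 0.128 without DRG4). The call of Gm20594 was also lost without DRG3, DRG5, 1079, 1198A or 1202. Whether reads of this 449-base model came from another locus was not tested.

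The largest falls, by the same rule over 877 genes, were 10 genes of several kinds. Myh7 and Myl2, the slow-type myosin heavy and regulatory light chains, and Myl3, a myosin light chain of slow and cardiac muscle, were among them. Myh7 was at 21.6, 32.8 and 163 CPM in controls and 0.753, 0.221, 1.5, 0.175 and 0 CPM in PNs (log2 fold change -7.10, SE 0.99, adjusted p = 0.00405, edgeR). Slpi, a secreted protease inhibitor, was at 2.23, 134 and 1280 CPM in controls and at 0.286 to 1.80 CPM in PNs, so that its controls differed among themselves far more than the PNs did. Cd209b and Timd4, receptors of tissue macrophages, and Stab2, a scavenger receptor of sinusoidal endothelium, showed 1 pattern, low in DRG3 and high in DRG4 and DRG5. Cd209b was at 3.78, 274 and 181 CPM in the controls and at 0.612 to 2.67 CPM in the PNs. Its call held without DRG4 or DRG5 (adjusted p up to 0.0316). Mup10, a major urinary protein of a family of near-identical copies, was at 16.3, 5.31 and 106 CPM in controls and at 0 CPM in all PNs but 1206, which had 0.191 CPM. Fitted fold changes of such genes depend on the prior count and are no bounds. Gbp2b, an interferon-inducible GTPase, lost its call without DRG4 (adjusted p = 0.0576) or DRG5, Myl3 without DRG5 (0.0643), and Chad, a cartilage matrix protein, without DRG5 (0.0799). By limma-voom the calls of Slpi, Cd209b, Timd4, Gbp2b, Stab2, Chad, Tyrobp, Camp, Nkg7, Ier5, Hist1h1e, Hist1h2ak, Hist1h4d, Hoxa4 and Gje1 were lost.

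Genes of Schwann cells lay mostly above 0 in PN, with calls in part of them. All 19 myelin genes had a positive log2 fold change (median 0.83), but 1 was called higher. Of 12 Schwann lineage genes 2 were called higher (median 1.11), of 13 genes of nonmyelinating Schwann cells 3 (median 1.2), and of 10 tested genes of immature and repair Schwann cells 1 (median 0.87). None of these 4 lists had a member called lower. Without DRG3 the numbers called higher were 3, 7, 8 and 2, and without DRG4 or DRG5 they were 0, 0, 0 and 1. The shares of 5.26%, 16.7%, 23.1% and 10% stand beside 4.12% over all genes. In bulk tissue, more cells of a type and more RNA per cell cannot be told apart.

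Pmp22, a membrane protein of peripheral myelin, was at 6620, 2380 and 2220 CPM in controls and 7760, 5510, 6430, 3540 and 10100 CPM in PNs. Its groups overlapped (log2 fold change 0.84, SE 0.50, adjusted p = 0.28, edgeR). Mbp, myelin basic protein, was at 3380, 1220 and 1080 CPM in controls and 3670, 1880, 2890, 1290 and 5570 CPM in PNs, also with overlap (0.69, SE 0.57, 0.424). In both genes DRG3 was the highest control, and 1203 and 1206 were the lowest and the highest PN.

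Sox10, the transcription factor of the lineage, had overlapping groups, with 118, 44.3 and 33.8 CPM in controls and 141, 231, 114, 62.2 and 204 CPM in PNs (adjusted p = 0.166, edgeR, and 0.0445 without DRG3). S100b, a calcium-binding protein of Schwann cells, had a log2 fold change of 1.01 (adjusted p = 0.124) and Erbb3, the neuregulin receptor, 1.71 (0.0694). Dhh, the ligand whose promoter drives the Cre, was at 129, 51.6 and 49.6 CPM in controls and 301, 456, 249, 149 and 451 CPM in PNs. Its groups did not overlap (log2 fold change 2.07, SE 0.49, adjusted p = 0.0315, edgeR). Cdh19, a cadherin of Schwann cell precursors, was at 88.4, 46.4 and 41.4 CPM in controls and 309, 485, 158, 121 and 283 CPM in PNs. It rose by 2.21 in log2 fold change (SE 0.51, adjusted p of 0.0289). Both calls were lost without DRG4, DRG5, 1079 or 1206 (adjusted p up to 0.144 for Dhh and 0.138 for Cdh19), and that of Dhh also without 1198A.

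Scn7a, a sodium channel of nonmyelinating Schwann cells, was at 532, 280 and 238 CPM in controls and 1020, 1950, 936, 1310 and 1120 CPM in PNs (log2 fold change 1.86, SE 0.38, adjusted p = 0.0182, edgeR). Ncam1, the neural cell adhesion molecule, was at 83.8, 53.4 and 37.5 CPM in controls and 160, 265, 155, 262 and 174 CPM in PNs (1.80, SE 0.33, 0.0118). Chl1, a relative of L1 adhesion molecules, was at 117, 51.0 and 45.2 CPM in controls and 292, 730, 215, 261 and 338 CPM in PNs (2.37, SE 0.52, 0.0247). In all 3 the lowest PN was above the highest control, which was DRG3 each time. All 3 calls were lost without DRG4 or DRG5, with an adjusted p of up to 0.0946 for Scn7a, 0.065 for Ncam1 and 0.117 for Chl1. L1cam (log2 fold change 1.57, adjusted p = 0.0605) and Gfap (1.21, 0.222) were not called.

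Shh, the sonic hedgehog ligand, was the called member of the immature and repair list. It was at 7.56, 4.36 and 5.21 CPM in controls and 25.8, 31.0, 21.9, 14.5 and 35.3 CPM in PNs. The groups did not overlap, and the call (log2 fold change 2.17, SE 0.34, adjusted p = 0.00624, edgeR) held in all 8 fits that each left out 1 library, at most at 0.0406. Sox2 (log2 fold change 1.92, adjusted p = 0.184), Tnc (-1.37, 0.231) and Postn (0.45, 0.716) were not called, and Postn was highest in 1198A, at 455 CPM against 22.0 to 135 in the other PNs.

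**Figure D2:**
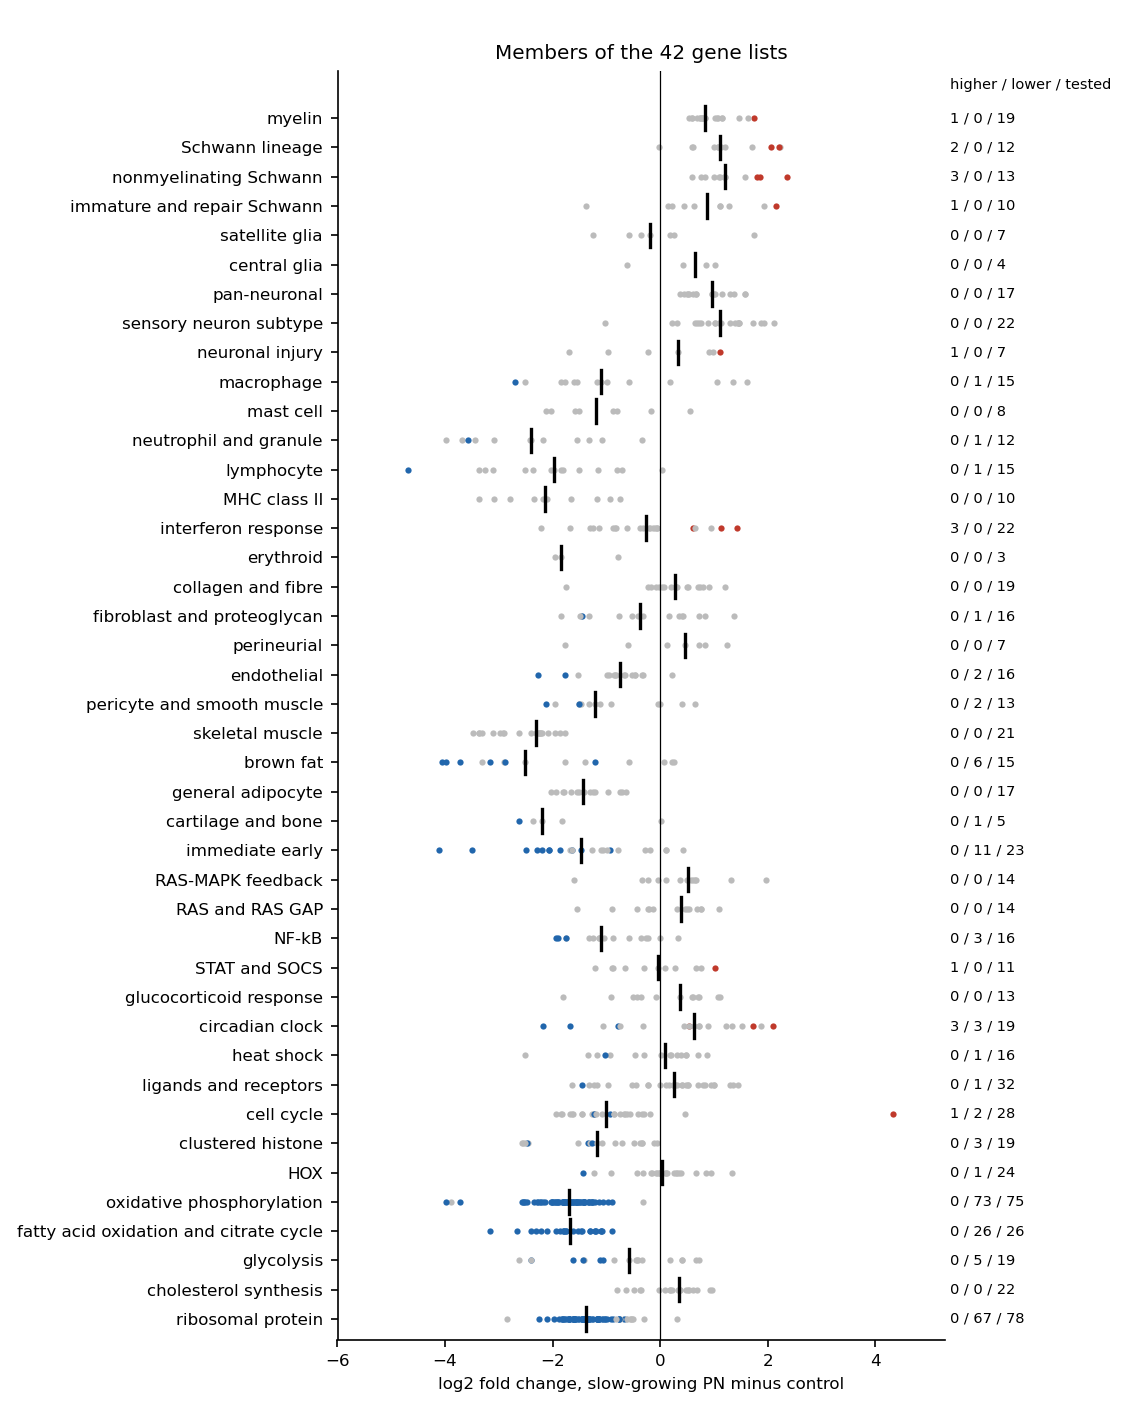
Log2 fold change of slow-growing PN over control (x axis) for the tested members of the 42 gene lists (rows), with members called higher in red, called lower in blue and the others in grey. The black bar is the median of the list, and the numbers at right are members called higher, called lower and tested, for example 0, 73 and 75 for oxidative phosphorylation.

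No gene of the neuronal or satellite glial lists was called, apart from 1 injury gene. It was 1 of 7 tested on its list (14.3%, beside 4.12% of all genes called higher). All 17 pan-neuronal genes (median log2 fold change 0.96) and 21 of 22 sensory subtype genes (median 1.12) were positive. In these lists 1 and 6 members had an unadjusted p under 0.05. Without DRG3 1 sensory subtype gene was called higher and 1 lower, and without 1203 1 higher. Without 1198A 1 satellite glial gene was called higher. Snap25, a SNARE protein of synapses, was at 1130, 626 and 345 CPM in controls and 1980, 963, 2680, 3620 and 1210 CPM in PNs (1.58, adjusted p = 0.103, edgeR). Scn10a, the sodium channel of nociceptors, was at 201, 91.2 and 71.0 CPM in controls and 247, 123, 465, 1230 and 159 CPM in PNs (1.88, adjusted p = 0.163). PN 1203 was highest in both, and the groups overlapped in both. Nefl, neurofilament light chain, had a log2 fold change of 0.67 (adjusted p = 0.488), and Trpv1, the capsaicin receptor, of 1.45 (0.111). Of 7 satellite glial genes 0 were called (2 with an unadjusted p under 0.05), with a median of -0.19. Kcnj10, a potassium channel of these cells, was at 38.5, 29.3 and 17.9 CPM in controls and 63.1, 212, 58.3, 91.4 and 53.0 CPM in PNs (1.74, adjusted p = 0.0694). Gja1, a gap junction protein of glia and fibroblasts, was at 47.2, 51.2 and 55.6 CPM in controls and 9.49, 33.2, 24.4, 11.4 and 28.9 CPM in PNs (-1.26, 0.0778). For these 2 genes the groups did not overlap, in opposite directions. Flrt3, a cell surface protein raised in injured sensory neurons, was at 21.2, 21.6 and 18.4 CPM in controls and 40.2, 58.8, 37.1, 52.2 and 34.2 CPM in PNs (1.12, SE 0.22, adjusted p = 0.0154, edgeR), a call lost without DRG4 or DRG5 (up to 0.087). Atf3, the injury transcription factor, was not called (-0.97, 0.119). Of 4 central glial genes tested, 0 were called (0 with an unadjusted p under 0.05).

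Immune lists had negative medians and few calls. Of 15 macrophage genes 1 was called lower (median -1.10), of 12 neutrophil granule genes 1 (median -2.41), of 15 lymphocyte genes 1 (median -1.97), and of 8 mast cell genes and 10 MHC class II genes 0 (medians -1.19 and -2.14, with 3 and 6 at an unadjusted p under 0.05). The shares of 6.67%, 8.33% and 6.67% were close to the 7.13% of all genes called lower. Apart from the mast cell list (summed level 116, 150 and 150 CPM), the spread among controls was wide. DRG3 was low in macrophage, lymphocyte and MHC class II genes, and DRG5 was high in granule genes. Csf1r, the receptor of macrophage growth factor, was at 42.1, 137 and 106 CPM in controls and 23.7, 121, 30.3, 11 and 36.1 CPM in PNs (adjusted p = 0.308, edgeR). Tyrobp, a signalling adaptor of myeloid cells, was at 18.3, 126 and 105 CPM in controls and 7.38, 30.4, 10.3, 4.11 and 11.6 CPM in PNs. It was called lower (log2 fold change -2.70, SE 0.71, adjusted p = 0.0445) although DRG3 lay below PN 1198A, and the call was kept only without DRG3 or 1198A (adjusted p of up to 0.169 otherwise). Cd68 (-1.84, 0.125) and Mertk, a receptor for apoptotic cells (1.36, 0.127), were not called. Leaving out DRG3 gave 4 macrophage, 5 lymphocyte and 4 MHC class II genes called lower, beside 1539 of 16081 tested genes in that fit. These numbers were 4, 1 and 2 without 1198A, 0, 1 and 0 without 1203, and 0 without any other library. Without 1203 1 macrophage gene was called higher. Granule genes called lower were 2 without DRG3, 3 without DRG4 and 0 without any other library. Mast cell genes called lower were 1 without 1198A, 2 without 1203 and 0 without any other library.

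S100a8, an alarmin of neutrophils, was at 52.1, 17.3 and 420 CPM in controls and 2.29 to 23.5 CPM in PNs (adjusted p = 0.0502, edgeR). Camp, the cathelicidin of neutrophil granules, was called lower (log2 fold change -3.58, adjusted p = 0.0484) with overlapping groups, and was kept only without DRG3 or DRG4 (up to 0.363 otherwise). Without DRG5 the log2 fold change of Camp was -1.42. The median of the granule list ranged from -2.96 to -0.463 over the fits that left out 1 library. Nkg7, a granule protein of cytotoxic lymphocytes, was at 0.687, 32.1 and 18.2 CPM in controls and 0 to 1.18 CPM in PNs (-4.69, adjusted p = 0.0297). Its groups overlapped, and the call was kept only without DRG3, 1198A or 1203 (up to 0.129 otherwise). Cd3e, a chain of the T cell receptor complex, was at 1.29, 68.9 and 46.3 CPM in controls and at 47.2 CPM in 1079, with 0.175 to 4.19 CPM in the other PNs. The B cell gene Cd79a (adjusted p = 0.0863), the MHC class II genes H2-Aa (0.199) and Ciita (0.0994) and the mast cell chymase Cma1 (0.136) had negative log2 fold changes and were not called. Cma1 was at 15.5, 23.0 and 23.3 CPM in controls and at 0.786 to 12.1 CPM in PNs, which did not overlap.

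Among 22 interferon response genes 3 were called higher (13.6%, beside 4.12% of all genes) and 0 lower, while the list's median was -0.26. Without DRG3 it held 2 genes called higher and 4 called lower, and without DRG4 or DRG5 1 higher and 0 lower. Ifit1, an RNA-binding antiviral protein, was at 7.81, 9.48 and 8.93 CPM in controls and 25.7, 29.6, 18.1, 23.7 and 21.4 CPM in PNs (log2 fold change 1.44, SE 0.21, adjusted p = 0.0043, edgeR). Ifit2, of the same family, was at 25.4, 24.9 and 16.9 CPM in controls and 64.0, 50.2, 38.7, 50.1 and 42.1 CPM in PNs (1.13, SE 0.23, 0.0163). Oasl2, a relative of the oligoadenylate synthetases, was at 24.7, 28.5 and 23.6 CPM in controls and 43.0, 39.6, 40.6, 34.7 and 37.3 CPM in PNs (0.61, SE 0.15, 0.0332). In these 3 genes every PN was above every control. Ifit1 kept its call in all 8 fits, Ifit2 lost it without DRG4 or DRG5 (adjusted p up to 0.0801), and Oasl2 kept it only without 1203 (up to 0.161 otherwise). Isg15, a ubiquitin-like protein of the same response, was at 6.70 to 12.0 CPM in controls and 5.68 to 11.5 CPM in PNs (adjusted p = 0.924).

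Few matrix and fibroblast genes were called. Of 19 collagen and fibre genes 0 were called (1 with an unadjusted p under 0.05), with a median of 0.28. Col1a1, a chain of the main fibrillar collagen, was at 247, 90.7 and 305 CPM in controls and 269, 362, 163, 56.1 and 446 CPM in PNs (adjusted p = 0.78, edgeR), and its sign turned without DRG4 or 1206. Col15a1, a basement membrane collagen, had a log2 fold change of 1.21 (adjusted p = 0.126). Of 16 fibroblast genes, with log2 fold changes of -1.84 to 1.37, 1 was called lower (6.25%, beside 7.13% of all genes), 5 had an unadjusted p under 0.05, and 4 were lower without overlap, beside 13.4% of all genes. It was Omd, a small leucine-rich proteoglycan, at 41.6, 33.5 and 31.5 CPM in controls and 18.4, 10.1, 16.4, 7.69 and 12.3 CPM in PNs (-1.45, SE 0.28, adjusted p = 0.015), a call lost without DRG4 or DRG5 (up to 0.0539). Dcn, decorin, was not called (0.42, 0.537). Of 7 perineurial genes 0 were called (1 with an unadjusted p under 0.05), among them Cldn1, a tight junction protein (0.73, adjusted p = 0.38).

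Vessel genes fell in part. Of 16 endothelial genes 2 were called lower (median -0.74) and of 13 pericyte and smooth muscle genes 2 (median -1.21), shares of 12.5% and 15.4% beside 7.13% of all genes. Without 1206 these numbers were 6 and 8, and without DRG4 or DRG5 0 and 1. Of the pericyte and smooth muscle genes 3 lay above 0, the pericyte markers Cspg4 (log2 fold change 0.64, adjusted p = 0.464, edgeR), Mcam (0.42, 0.304) and Rgs5 (0.001, 0.999), and Pdgfrb, a receptor of pericytes and fibroblasts, was at -0.037 (0.933). Abcc9 and Kcnj8 encode the subunits of the ATP-sensitive potassium channel of pericytes and smooth muscle. Abcc9 was at 85.8, 165 and 184 CPM in controls and 34.7, 27.1, 40.6, 21.5 and 43.4 CPM in PNs (log2 fold change -2.11, SE 0.30, adjusted p = 0.00427, edgeR), a call that held in all 8 fits without 1 library. Kcnj8 was at 12.1, 18.9 and 17.5 CPM in controls and 6.10, 4.34, 5.19, 2.97 and 9.74 CPM in PNs (-1.51, SE 0.36, 0.0325). Both had non-overlapping groups. Kdr, the main receptor of vascular endothelial growth factor, was at 48.1, 93.5 and 90.6 CPM in controls and 24.1, 14.8, 18.3, 12.7 and 44.1 CPM in PNs (-1.76, SE 0.42, 0.0308). Plvap, a protein of fenestrated endothelium, fell by 2.26 in log2 fold change (adjusted p of 0.0341). The groups of Plvap overlapped by 1 library, PN 1206. The calls of Kcnj8, Kdr and Plvap were lost without DRG4, DRG5, 1079, 1198A or 1202 (adjusted p up to 0.131, 0.128 and 0.147), and that of Plvap also without 1203. Acta2, smooth muscle actin, was at 382, 289 and 313 CPM in controls and 40.0, 25.7, 38.1 and 12.3 CPM in 4 of the PNs, but at 473 CPM in 1206. It was not called (adjusted p = 0.364), and was called without 1206 (0.00664). Pecam1, an endothelial adhesion molecule, was also highest in 1206, at 127 CPM (adjusted p = 0.38).

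Levels of muscle and fat genes had a wide spread between libraries. All 21 skeletal muscle genes had negative log2 fold changes (median -2.31) and 10 did not overlap (beside 13.4% of all genes), yet 0 were called (7 with an unadjusted p under 0.05). Their summed level was 13600, 31600 and 49000 CPM in controls, and 15300, 119, 14400, 5070 and 202 CPM in PNs. Acta1, skeletal actin, was at 595, 1630 and 2620 CPM in controls and 365, 1.47, 431, 130 and 3.72 CPM in PNs (adjusted p = 0.18, edgeR), and Ckm, muscle creatine kinase, likewise was not called (0.225). Muscle RNA was present in all 8 libraries, at low levels in 1198A and 1206, where titin (Ttn) was at 49.3 and 104 CPM.

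Of 15 brown fat genes 6 were called lower (40.0%, beside 7.13% of all genes), and 11 did not overlap, beside 13.4% of all genes that were lower without overlap. The number called lower was 2 without DRG4 or DRG5, 3 without 1079 or 1202, and 9 without 1198A. The lineage factors Prdm16 (log2 fold change 0.23, adjusted p = 0.702, edgeR), Ebf2 (0.26, 0.63) and Zic1 (0.065, 0.941) were the 3 members above 0. Cidea, a lipid droplet protein of brown adipocytes, was at 181, 291 and 246 CPM in controls and 1.58, 30.7, 25.1, 0.262 and 14.4 CPM in PNs (log2 fold change -4.05, SE 1.07, adjusted p = 0.0442, edgeR), a call kept only without 1198A or 1203 (up to 0.13 otherwise). Cox7a1, a cytochrome c oxidase subunit of muscle and brown fat, was at 97.3, 120 and 172 CPM in controls and 3.54, 15.3, 15.3, 1.14 and 5.63 CPM in PNs (-3.99, SE 0.71, 0.0103). Fabp3, a fatty acid carrier of oxidative tissues, was at 112, 117 and 287 CPM in controls and 17.7, 24.6, 34.9, 28.5 and 10.6 CPM in PNs (-2.89, SE 0.43, 0.00513). The PNs were below the controls in each, and the calls of Cox7a1 and Fabp3 held without any 1 library. Cox8b (-3.72, 0.0189), another subunit of this kind, lost its call without DRG4 or DRG5 (up to 0.0758). Pank1, a pantothenate kinase, fell by 1.21 in log2 fold change (adjusted p of 0.0252) and lost its call without DRG4, DRG5, 1079 or 1202 (up to 0.123). Ucp1, the uncoupling protein that defines brown fat, was at 830, 837 and 1300 CPM in controls and 1.73, 278, 159, 1.66 and 58.3 CPM in PNs. Its groups did not overlap, but the spread in PNs was wide and it was not called (-3.31, adjusted p = 0.144).

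Of 17 general adipocyte genes 0 were called (1 with an unadjusted p under 0.05, median -1.44), with 8 not overlapping, beside 13.4% of all genes that were lower without overlap. Adipoq, adiponectin, was at 366, 295 and 443 CPM in controls and 28.9, 148, 194, 0.786 and 306 CPM in PNs (adjusted p = 0.40, edgeR). Of 5 cartilage and bone genes 1 was called lower (20%, beside 7.13% of all genes), Comp, a matrix protein of cartilage and tendon, with 12.8, 6.73 and 28.7 CPM in controls and 0.799 to 4.22 CPM in PNs (-2.63, adjusted p = 0.0287). The call of Comp was lost without DRG5, 1198A, 1202 or 1206 (up to 0.153). Of 3 erythroid genes tested 0 were called (1 with an unadjusted p under 0.05). The summed general adipocyte level was 13200 to 19600 CPM in controls and 1270 to 11400 CPM in PNs, without overlap, while that of muscle overlapped, with 1079 and 1202 above DRG3. The part of muscle and fat RNA in the other differences was not tested beyond the fit with both scores.

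**Figure D3:**
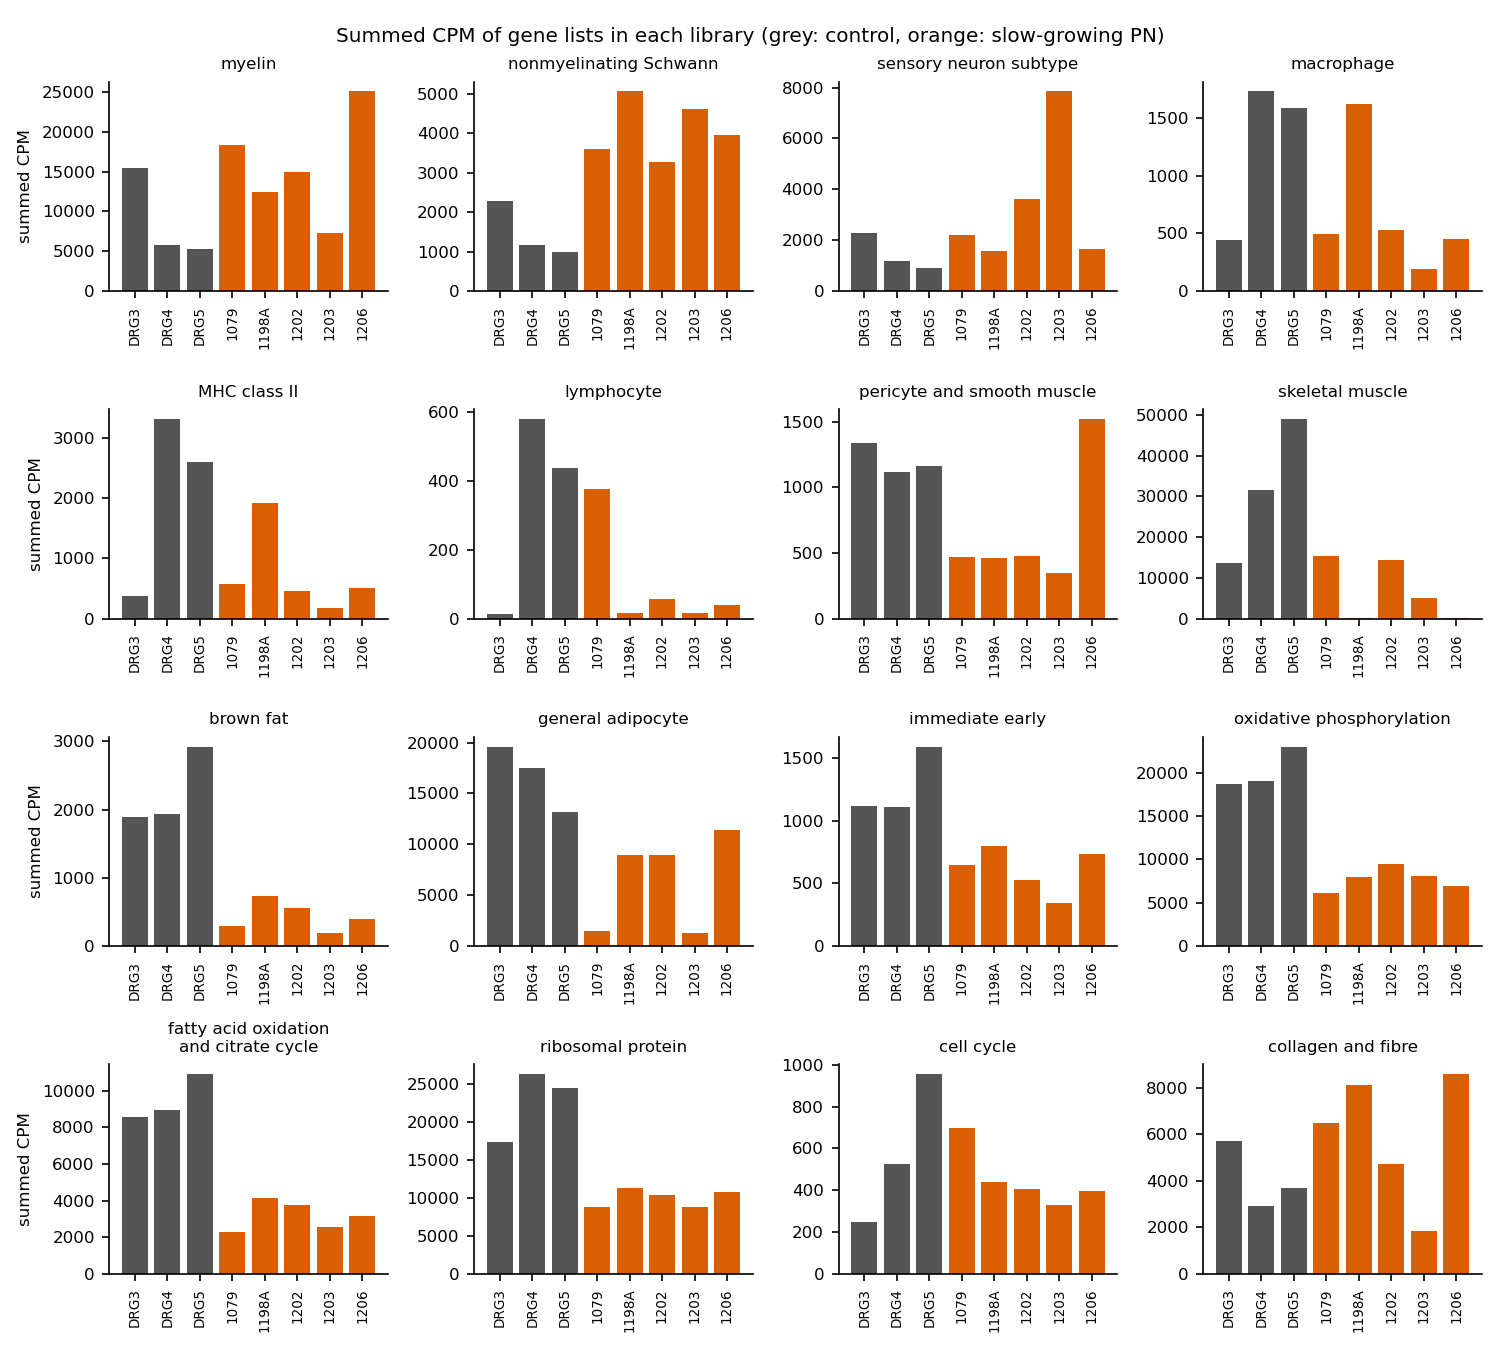
Summed CPM (y axis, linear from 0) of 16 gene lists in each of the 8 libraries (x axis), controls in grey and slow-growing PNs in orange. Oxidative phosphorylation runs from 18700 to 23000 CPM in controls and 6080 to 9440 CPM in PNs, while skeletal muscle ranges from 119 to 15300 CPM among the PNs.

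Immediate early genes, which are switched on within minutes of a stimulus without new protein synthesis and encode mainly transcription factors, were lower in PN. Of 23 tested 11 were called lower (47.8%, beside 7.13% of all genes) and 0 higher, with a median of -1.48. The called genes were Fos, Fosb, Jun, Junb, Egr1, Ier2, Ier5, Nr4a3, Klf2, Klf4 and Dusp1. Promoter sequences of 3 of them are shown because these genes had the lowest adjusted p of the list and moved together. They run from 250 bases before to 50 bases after the start site, 5′ to 3′ on the gene's strand, and come from RefSeq (GRCm38.p6). Capitals mark the letters TGACG, the core of the cAMP response element, on either strand. The Fosb promoter is chr7:19309996-19310295 (minus strand), that of Dusp1 chr17:26508423-26508722 (minus strand) and that of Nr4a3 chr4:48045055-48045354 (plus strand).
Fosb: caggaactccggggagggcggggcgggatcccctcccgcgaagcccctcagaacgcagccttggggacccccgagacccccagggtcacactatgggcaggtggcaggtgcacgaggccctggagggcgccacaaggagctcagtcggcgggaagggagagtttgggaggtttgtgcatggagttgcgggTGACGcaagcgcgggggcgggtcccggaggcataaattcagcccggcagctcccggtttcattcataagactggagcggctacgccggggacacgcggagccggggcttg
Dusp1: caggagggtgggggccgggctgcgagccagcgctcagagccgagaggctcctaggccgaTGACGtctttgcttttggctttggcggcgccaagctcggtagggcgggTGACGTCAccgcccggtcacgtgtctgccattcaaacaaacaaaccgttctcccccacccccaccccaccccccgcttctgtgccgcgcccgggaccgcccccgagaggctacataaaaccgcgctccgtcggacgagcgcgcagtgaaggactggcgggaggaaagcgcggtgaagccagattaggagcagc
Nr4a3: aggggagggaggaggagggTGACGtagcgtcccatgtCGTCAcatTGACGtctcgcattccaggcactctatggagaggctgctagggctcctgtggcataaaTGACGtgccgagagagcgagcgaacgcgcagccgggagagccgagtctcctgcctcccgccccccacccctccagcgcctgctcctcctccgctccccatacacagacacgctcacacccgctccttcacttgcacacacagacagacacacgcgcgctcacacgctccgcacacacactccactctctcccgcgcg
The letters TGACG were found in 7 of the 9 called immediate early genes that the promoter table held, or 77.8%, and in 10 of the 17 tested genes of the list that it held (58.8%), beside 21% of 27025 promoters of the same length. Of 6 motifs searched on both strands, the others were found less often. The full cAMP response element TGACGTCA, which holds TGACG, was in 1 of the 9 (11.1%, beside 1.88% of all promoters) and the E-box CACGTG in 2 (22.2%, beside 7.24%). The AP-1 site TGACTCA, the CArG box of serum response factor and the kappaB site were in 0 of the 9, beside 5.17%, 1.57% and 1.32% of all promoters. A match is a match of letters and was not tested as a binding site.

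Fosb, an AP-1 subunit, was at 7.99, 10.2 and 21.9 CPM in controls and 1.21, 1.03, 0.699, 0.349 and 0.477 CPM in PNs. Every PN was below every control, with a log2 fold change of -4.11 (SE 0.48, adjusted p = 0.00231, edgeR). Nr4a3, an orphan nuclear receptor, was at 5.07, 4.93 and 12.2 CPM in controls and 0.527, 0.441, 1.2, 0.349 and 0.764 CPM in PNs (-3.49, SE 0.49, 0.00405). Dusp1, a phosphatase of MAP kinases, was at 110, 120 and 190 CPM in controls and 40.4, 34.6, 35.2, 17.6 and 38.6 CPM in PNs (-2.07, SE 0.29, 0.00405). Klf2, a zinc finger factor of endothelium and lymphocytes, was at 29.2, 26.8 and 34.6 CPM in controls and 5.42, 6.03, 8.09, 2.53 and 8.69 CPM in PNs (-2.30, SE 0.35, 0.00518). These 4 calls held in all 8 fits without 1 library. Fos itself was at 15, 34.7 and 57.9 CPM in controls and 6.33, 13.6, 4.09, 2.62 and 5.06 CPM in PNs (-2.49, SE 0.56, 0.0262). The call of Fos was lost without DRG4, DRG5, 1079, 1202 or 1206 (up to 0.13). Ier2 fell by 2.07 in log2 fold change (adjusted p of 0.0149), a call lost without DRG4 or DRG5 (up to 0.0836). The number of members called lower was 4 without DRG5, 5 without DRG4, 6 without 1079 or 1202 and 12 without 1203.

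Genes that report RAS and MAP kinase output had mixed signs. Of 14 feedback genes, 0 were called (3 with an unadjusted p under 0.05), with a median of 0.51. Dusp6, the ERK phosphatase, was at 21.1, 32.6 and 34.6 CPM in controls and 16.4, 74.2, 20.5, 12.2 and 19.4 CPM in PNs (log2 fold change -0.04, adjusted p = 0.966, edgeR). Etv1, an ETS factor, was at 106, 56.8 and 41.6 CPM in controls and 133, 249, 160, 191 and 118 CPM in PNs. Its groups did not overlap, and the adjusted p was 0.0518 (1.32, SE 0.37). Dusp4, another ERK phosphatase, was at 20.7, 18.1 and 20.3 CPM in controls and 1.83 to 14.3 CPM in PNs (-1.61, 0.088), also without overlap. Of 14 RAS and RAS GAP genes 0 were called (7 with an unadjusted p under 0.05), with Rasa2, a GTPase-activating protein, at a log2 fold change of 0.46 (adjusted p = 0.0595). Without DRG3 5 of these genes were called higher and 1 lower, and without any other library 0 were called. Among the feedback genes 1 was called higher without DRG3 and 1 lower without 1198A.

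Of 16 NF-kB genes 3 were called lower (18.8%, beside 7.13% of all genes), with a median of -1.09. Without DRG3 the number was 7, and without DRG4, DRG5 or 1079 it was 0. Relb, a subunit of the noncanonical pathway, was at 7.30, 19.3 and 11.4 CPM in controls and 2.86, 4.78, 1.70, 2.71 and 4.49 CPM in PNs (log2 fold change -1.93, SE 0.41, adjusted p = 0.0217, edgeR). Icam1, a target that binds leukocyte integrins, fell by 1.91 in log2 fold change (adjusted p of 0.0313) and Bcl3, a nuclear cofactor, by 1.74 (0.0335). In all 3 genes the PNs were below the controls. All 3 calls were lost without DRG4, DRG5 or 1079 (adjusted p up to 0.111 for Relb, 0.137 for Icam1 and 0.145 for Bcl3), those of Icam1 and Bcl3 also without 1202, that of Icam1 also without 1198A, and that of Bcl3 also without 1206. Nfkb1 was not called (-0.58, 0.18). Of 11 STAT and SOCS genes 1 was called higher (9.09%, beside 4.12% of all genes), Il6st, the shared receptor chain of the interleukin-6 family, with 393, 354 and 329 CPM in controls and 559, 867, 665, 993 and 577 CPM in PNs (1.03, SE 0.26, 0.0365), a call lost without DRG4, DRG5, 1198A or 1202 (up to 0.162). Stat3 was at 142, 136 and 106 CPM in controls and 154 to 359 CPM in PNs, without overlap (0.77, 0.127).

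Genes of the circadian clock moved in both directions, 3 higher and 3 lower of 19 (15.8% each, beside 4.12% and 7.13% of all genes). Without DRG4, DRG5 or 1079 0 were called higher and 1 lower, without DRG3 1 higher and 3 lower, and without 1203 5 higher and 3 lower. Nr1d1, the repressor REV-ERB alpha, was at 38.5, 31.7 and 45.3 CPM in controls and 152, 296, 104, 69.0 and 205 CPM in PNs (log2 fold change 2.10, SE 0.47, adjusted p = 0.0254, edgeR). Nr1d2, its paralogue, was at 31.0, 32.0 and 30.5 CPM in controls and 109, 185, 68.3, 54.9 and 96.4 CPM in PNs (1.72, SE 0.39, 0.0263). Nfil3, a repressor of D-box genes, was at 22.8, 15 and 26.4 CPM in controls and 3.84, 4.85, 8.49, 2.80 and 3.72 CPM in PNs (-2.17, SE 0.36, 0.00797). None of these 3 overlapped between groups. Npas2, a partner of the activator BMAL1, fell by 1.68 in log2 fold change (adjusted p of 0.0229), Cry1, a repressor of the core loop, fell by 0.79 (0.0276), and Clock rose by 0.54 (0.0455). Nfil3 kept its call in all 8 fits without 1 library, whereas Nr1d1 and Nr1d2 lost theirs without any 1 control or without 1079 (adjusted p up to 0.115 and 0.118). Npas2 lost its call without DRG4, DRG5, 1079 or 1206 (up to 0.0938). Cry1 kept its call only without DRG3 or 1203 (up to 0.128 otherwise), and Clock only without 1198A or 1203 (up to 0.195 otherwise).

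Other signalling lists held few calls. Of 13 glucocorticoid response genes 0 were called (1 with an unadjusted p under 0.05), with Fkbp5, a chaperone induced by the receptor, at 1.12 (adjusted p = 0.273, edgeR). Of 16 heat shock genes 1 was called lower (6.25%, beside 7.13% of all genes), Hspe1, a mitochondrial co-chaperonin, with 122, 126 and 150 CPM in controls and 49.6, 79.4, 77.5, 65.7 and 52.8 CPM in PNs (-1.03, SE 0.20, 0.0139), a call lost without DRG4 or DRG5 (up to 0.0777). Hspa1a was at 109 CPM in DRG3 and 13.8 CPM in both other controls, with 2.18 to 18.5 CPM in PNs (0.0852). Of 32 ligand and receptor genes 1 was called lower (3.12%, beside 7.13% of all genes). Without DRG3 4 of them were called higher and 3 lower, and without 1203 2 higher and 1 lower. In the main fit the called gene was Mif, macrophage migration inhibitory factor. It was at 94.8, 80.2 and 85.8 CPM in controls and 24.6, 24.2, 37.3, 47.8 and 25.3 CPM in PNs (-1.45, SE 0.25, 0.00917). That call held without any 1 library, but was lost with the dependence on transcript length and GC content taken out, at a log2 fold change of -0.70. The receptor of Mif, Cd74, was not called (-1.18, 0.371), nor was App, the amyloid precursor protein (0.81, 0.0595), which did not overlap.

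**Figure D4:**
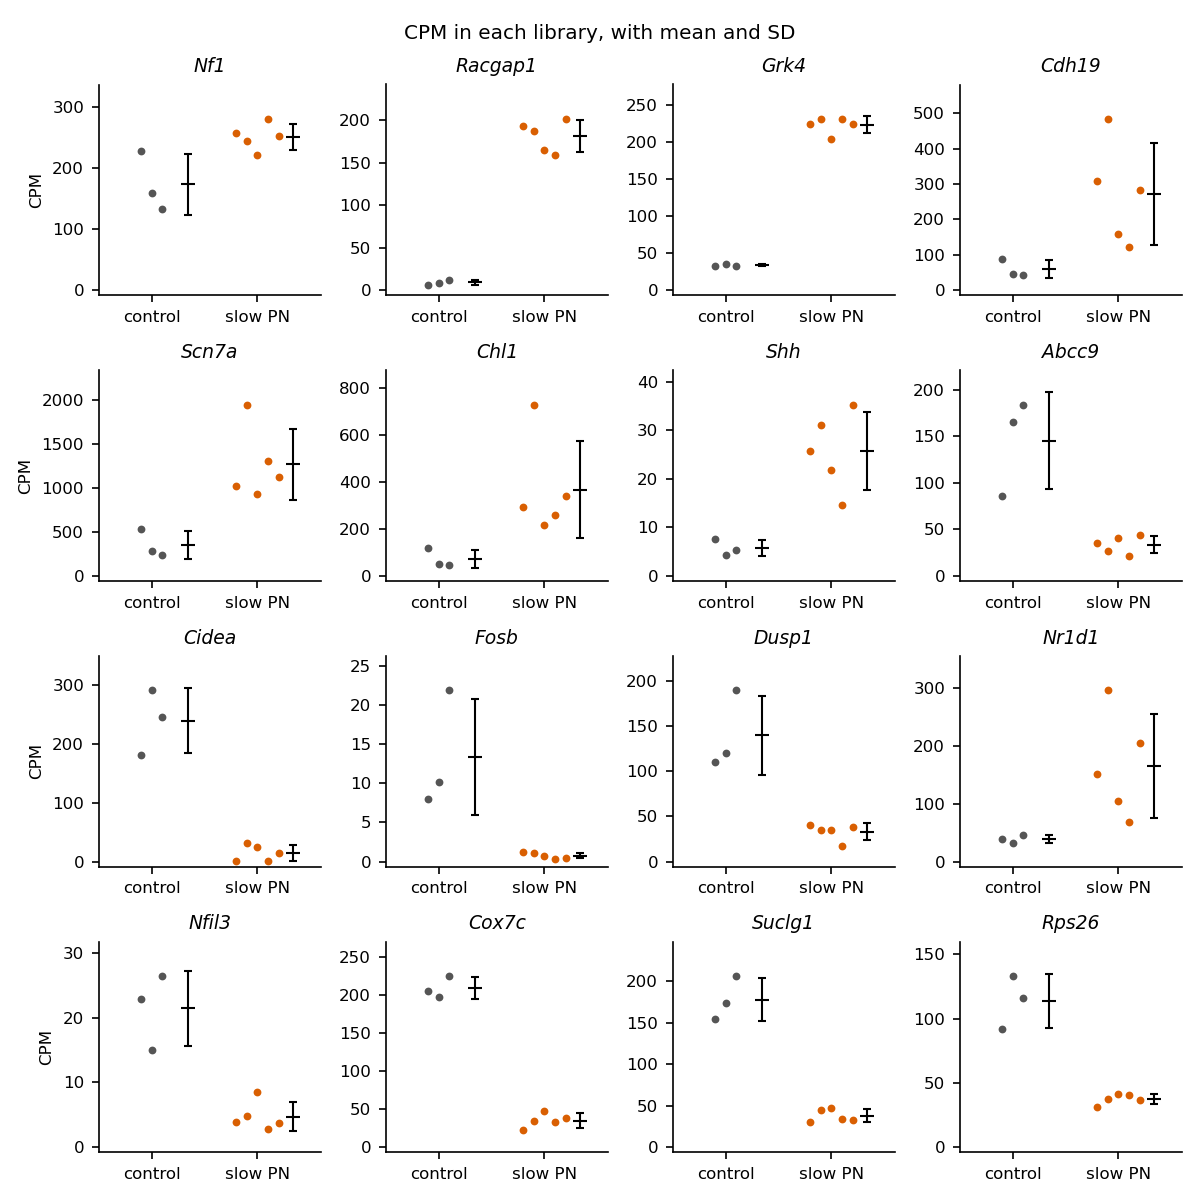
CPM of 16 genes (y axes, linear) in each control (grey, n = 3) and each slow-growing PN (orange, n = 5), with the mean and SD beside the points. The groups overlap for Nf1 and are separate for the other genes shown, with Grk4 at 32.7 to 35.5 CPM in controls and 204 to 232 CPM in PNs.

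Genes of mitochondrial energy production formed the most uniform group. Of 75 tested oxidative phosphorylation genes 73 were called lower (97.3%), and of 26 genes of fatty acid oxidation and the citrate cycle 26 (100%), beside 7.13% of all genes. Their median log2 fold changes were -1.70 and -1.68. All 101 were below 0, and all did not overlap between the groups. The summed oxidative phosphorylation level was 18700, 19000 and 23000 CPM in controls and 6080, 7950, 9440, 8130 and 6990 CPM in PNs. The controls were closer to each other here than in the muscle and immune lists. In the fat lists the controls were further apart than in oxidative phosphorylation but closer than in the muscle list. The summed brown fat level was 1890, 1930 and 2920 CPM in controls and 189 to 739 CPM in PNs. With muscle and adipocyte scores as covariates 0 members of the 2 mitochondrial lists were called, as were 0 of all genes. The part of muscle and fat RNA in this fall was not tested further.

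Cox7c, a subunit of cytochrome c oxidase, was at 205, 198 and 225 CPM in controls and 22.1, 33.9, 48.2, 33.3 and 38.3 CPM in PNs (log2 fold change -2.57, SE 0.23, adjusted p = 0.000996, edgeR). Cox5a, of the same complex, was at 325, 355 and 413 CPM in controls and 54.7, 79.0, 103, 89.2 and 76.9 CPM in PNs (-2.18, SE 0.21, 0.00143). Sdhb, the iron-sulfur subunit of complex II, was at 203, 189 and 267 CPM in controls and 39.8, 56.5, 67.0, 56.4 and 48.1 CPM in PNs (-2.04, SE 0.20, 0.00148). The fall thus spanned complexes II and IV, and complex I was represented by Ndufs7 (-2.01, SE 0.21, 0.00187). The 2 genes not called were Atp5b, the catalytic beta subunit of ATP synthase, at 2670, 2720 and 3260 CPM in controls and 1940 to 2640 CPM in PNs (-0.32, 0.355), and Cox6a2, the muscle isoform of a cytochrome c oxidase subunit (-3.89, 0.0724).

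Suclg1, a subunit of succinyl-CoA ligase, was at 154, 173 and 206 CPM in controls and 30.6, 45.4, 47.7, 33.5 and 33.2 CPM in PNs (log2 fold change -2.22, SE 0.20, adjusted p = 0.000996, edgeR). Fh1, fumarate hydratase, was at 121, 117 and 137 CPM in controls and 34.4, 42.1, 45.7, 39.7 and 41.9 CPM in PNs (-1.62, SE 0.14, 0.000996). Etfb, which carries electrons from fatty acid oxidation, fell by 2.41 in log2 fold change (SE 0.30, adjusted p of 0.00285). These calls held in all 8 fits without 1 library. In those fits 64 to 73 of the oxidative phosphorylation genes and 15 to 26 of the citrate cycle and fatty acid genes were called lower, the fewest in both without DRG5.

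Of 19 glycolysis genes 5 were called lower (26.3%, beside 7.13% of all genes, median -0.57). Only 2 were called without DRG4, DRG5, 1079, 1202 or 1206, 3 without 1198A and 4 without DRG3, against 6 without 1203. Ldha, lactate dehydrogenase A, was at 1050, 1020 and 1180 CPM in controls and 322, 371, 530, 455 and 328 CPM in PNs (log2 fold change -1.43, SE 0.22, adjusted p = 0.00586, edgeR). Pfkl, the liver-type phosphofructokinase, was at 123, 110 and 87.4 CPM in controls and 19.2, 42.4, 36.3, 39.1 and 36.9 CPM in PNs (-1.62, SE 0.25, 0.00586). Both held without any 1 library. Hk2, the hexokinase of muscle and fat, fell by 2.41 in log2 fold change (adjusted p of 0.0432) and was kept only without 1198A or 1203 (up to 0.148 otherwise). Gapdh, a further glycolytic enzyme, fell by 1.06 (0.0355) and was kept only without DRG3 or 1203 (up to 0.136 otherwise). Of 22 cholesterol synthesis genes 0 were called (3 with an unadjusted p under 0.05, median 0.35).

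Genes of cytosolic ribosomal proteins were also lower, 67 of 78 called (85.9%, beside 7.13% of all genes, median -1.37). Rps26 was at 91.9, 133 and 116 CPM in controls and 31.6, 37.7, 41.2, 40.6 and 36.6 CPM in PNs (log2 fold change -1.60, SE 0.16, adjusted p = 0.00169, edgeR). Rpl37 was at 136, 193 and 161 CPM in controls and 33.4, 50.7, 49.9, 38.1 and 49.9 CPM in PNs (-1.88, SE 0.20, 0.00187), and Rps2 at 371, 536 and 601 CPM against 122 to 152 CPM (-1.82, SE 0.19, 0.00196). The PNs were far below the controls and close to each other. These genes have many processed pseudogenes, so that the assignment of their reads is uncertain. Without 1 library 48 to 72 were called lower, with 48 both without DRG4 and without DRG5.

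Transcript length moved with these lists. The median transcript length was 1005 bases for the oxidative phosphorylation genes and 1100 for the ribosomal protein genes, beside 3359 for all tested genes, 2047.5 for genes called lower and 3596.5 for genes called higher. In the shortest of 5 equal classes by length (57 to 1946 bases) 17.2% were called lower and 3.31% higher, and in the longest (5227 to 123179 bases) 2.12% and 4.79%. Over genes with an average log2 CPM of at least 3, the median of these shortest genes lay within each control 0.265 to 0.306 above the mean of the 8 libraries on the log2 scale, and within each PN 0.0404 to 0.305 below it. With the dependence on length and GC content taken out of every library as an offset, 1123 genes were called, 603 lower and 520 higher. In that fit 64 oxidative phosphorylation genes, 25 genes of fatty acid oxidation and the citrate cycle, 35 ribosomal protein genes and 6 immediate early genes were called lower, and the list medians were -1.18, -1.49, -0.71 and -1.25. Of the glycolysis genes 2 were called lower there, with a median of -0.285. The calls of Cdh19, Tyrobp, Camp, Nkg7, Plvap, Kcnj8, Cidea, Comp, Jun, Junb, Ier2, Ier5, Klf4, Bcl3, Il6st, Clock, Nr1d2, Cry1, Hspe1, Mif, Aurka, Hist1h1e, Hist1h2ak, Hist1h4d, Hoxa4, Gapdh and Hk2 were lost in that fit. Among these the log2 fold change became smaller by over 1.5 times for Mif (-1.45 to -0.70), Hspe1 (-1.03 to -0.48), Clock (0.54 to 0.26), Hist1h4d (-1.27 to -0.72), Hoxa4 (-1.42 to -0.90) and Tyrobp (-2.70 to -1.75). For others it stayed close, as for Hk2 (-2.41 to -2.44), Cdh19 (2.21 to 2.06), Nr1d2 (1.72 to 1.59) and Comp (-2.63 to -2.37). Genes that kept their call with a fold change smaller by over 1.5 times were Rgcc (-1.58 to -0.80), Ndufs7 (-2.01 to -1.31), Rps26 (-1.60 to -0.98), Rpl37 (-1.88 to -1.10) and Rps2 (-1.82 to -1.08). The citrate cycle and fatty acid genes had a median length of 2608 bases, in the second-shortest class (1947 to 2891 bases), where 8.12% of genes were called lower. The part of transcript length or RNA quality in the difference was otherwise not tested.

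**Figure D5:**
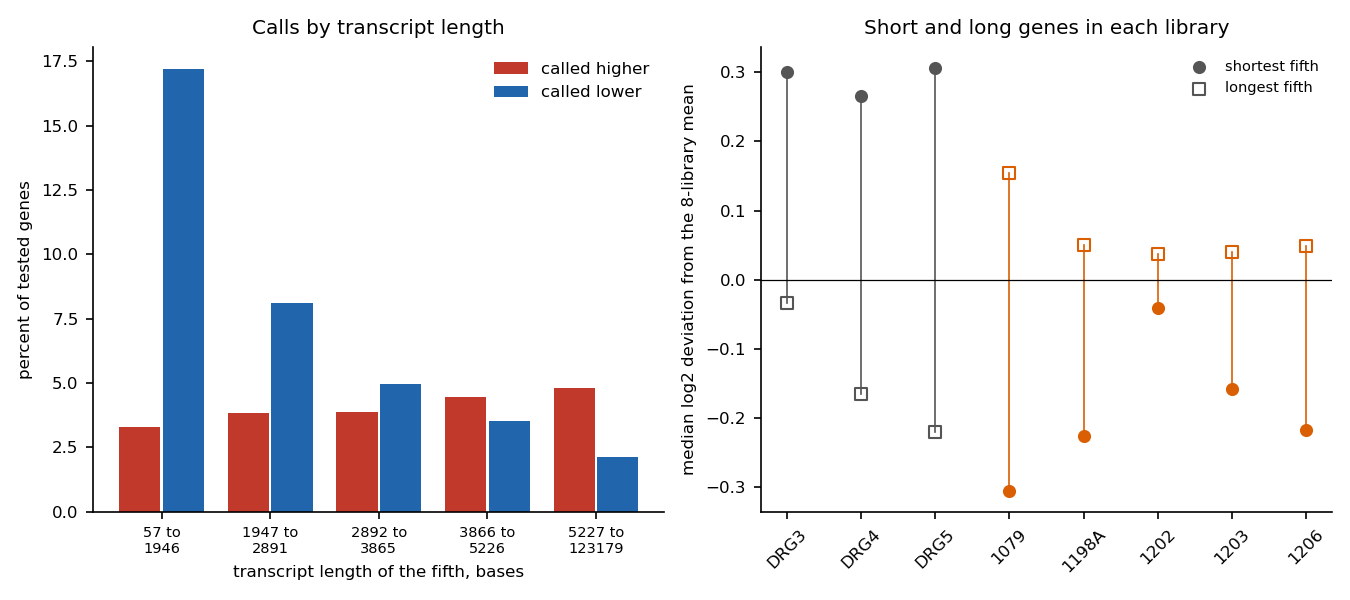
Left, the percent of tested genes called higher (red) and lower (blue) in 5 equal classes of transcript length (x axis, bases), with lower calls going from 17.2% in the shortest to 2.12% in the longest class. Right, the median log2 deviation of the shortest (circles) and longest (squares) class from the 8-library mean in each control (grey) and slow-growing PN (orange), counting genes with an average log2 CPM of at least 3.

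Cell cycle genes other than Racgap1 lay mostly below 0 in PN. Of 28 genes 26 had negative log2 fold changes (median -1.01), 2 were called lower (7.14%, beside 7.13% of all genes) and Racgap1 was called higher. The number called lower was 7 without DRG3, 1 without 1203 and 0 without any other library. Mki67, the proliferation marker, was at 43.0, 134 and 325 CPM in controls and 122, 40.2, 44.7, 11.1 and 18.1 CPM in PNs (adjusted p = 0.167, edgeR). Top2a, the topoisomerase of dividing cells, likewise overlapped (0.319), with PN 1079 highest among the PNs at 54.6 CPM. Tyms, thymidylate synthase, was at 27.5, 37.1 and 39.8 CPM in controls and 23.4, 20.2, 15.5, 12.1 and 19.9 CPM in PNs (log2 fold change -0.93, SE 0.24, adjusted p = 0.0397), and Aurka, a mitotic kinase, fell by 1.23 (0.042). Tyms kept its call only without DRG3 or 1203, and Aurka only without DRG3 (adjusted p up to 0.172 and 0.206 otherwise). Of 19 tested histone cluster genes 3 were called lower (15.8%, beside 7.13% of all genes), Hist1h1e (-1.33, 0.0463), Hist1h2ak (-2.47, 0.0463) and Hist1h4d (-1.27, 0.0496), all 3 with overlapping groups. None of the list was called without DRG4, DRG5, 1202 or 1206, and 8 were called without DRG3.

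Of 24 tested HOX genes, which mark the position along the body axis, 1 was called lower (4.17%, beside 7.13% of all genes), Hoxa4, with 2.66, 5.22 and 6.91 CPM in controls and 1.28, 2.57, 2, 1.75 and 1.53 CPM in PNs (log2 fold change -1.42, SE 0.38, adjusted p = 0.0459, edgeR). The call was kept only without DRG3 or 1198A (up to 0.224 otherwise). The median log2 fold change of the list was 0.045. Without the filter on low counts, the calls of Oasl2, Clock, Tyms, Aurka, Hist1h1e, Hist1h4d and Hoxa4 were lost. With upper-quartile factors those of Clock, Tyms and Hist1h4d were lost, and with the size factors of DESeq2 those of Hist1h4d and Hoxa4. With all 14 libraries in the fit those of Gapdh and Gje1 were lost, with robust estimation those of Camp and Hist1h4d, and with muscle, fat and the most abundant genes out of the scaling that of Hist1h4d.

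Slow-growing PNs were last set against the 6 fast-growing PNs, which share the genotype and differ by label in growth. Of 15465 genes tested 196 were called (1.27%). That number ranged from 2 to 1194 when 1 library was left out, with 2 without any 1 of 1079, 1202, 1206, 1053 and 1191 and 1194 without 1198A, so that single libraries decided it. The genes called between slow-growing PN and control with the lowest p in this comparison were Oasl2, Tmprss5, Ifit1, Rgcc and Ttyh1. Both comparisons use the same slow-growing libraries. Levels of fast-growing PNs, and the group means beside them, were scaled over all 14 libraries.

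Oasl2 was at 97.9 to 145 CPM in fast-growing PNs, with a mean of 124 against 39.8 in slow-growing PNs (log2 fold change 1.64, SE 0.13, adjusted p = 0.00104, edgeR). Ifit1 was at 47.8 to 91.4 CPM in fast-growing PNs, with a mean of 67.5 against 24.2 (1.48, SE 0.19, 0.0156). Both were thus higher in slow-growing PN than in control and higher again in fast-growing PN. Tmprss5, a membrane serine protease, was at 6.35, 3.04 and 2.45 CPM in controls and 9.57, 14.8, 11.9, 8.04 and 11.2 CPM in slow-growing PNs, and at 23.2 to 29.8 CPM in fast-growing PNs (1.21, SE 0.15, 0.0156). Ttyh1, a chloride channel family member, was at 36.0, 24.4 and 13.9 CPM in controls, at 56.5 to 82.7 CPM in slow-growing PNs and at 113 to 140 CPM in fast-growing PNs (0.83, SE 0.14, 0.0376). Rgcc, a regulator of the cell cycle, was at 81.7, 64.1 and 90.9 CPM in controls, at 17.0 to 29.9 CPM in slow-growing PNs and at 9.29 to 15.5 CPM in fast-growing PNs (-1.16, SE 0.18, 0.0317). Over the 11 fits of this comparison that each left out 1 library, Oasl2 was called in 11, Tmprss5 and Ifit1 in 5, and Rgcc and Ttyh1 in 4, all 5 with the same sign throughout. Against control, Rgcc kept its call in all 8 fits (log2 fold change -1.58, and -0.80 with the dependence on length and GC content taken out), Ttyh1 (log2 fold change 1.47, adjusted p = 0.0213) lost it without DRG4 or DRG5, and Tmprss5 (1.48, 0.0374) kept it only without DRG3 or 1203.

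Several genes with marked differences from control were not called between the PN groups. Racgap1 was at 169 to 215 CPM in fast-growing PNs (log2 fold change fast over slow 0.02, SE 0.11, adjusted p = 0.924, edgeR) and Grk4 at 166 to 247 CPM (-0.22, SE 0.13, 0.388). Shh was at 8.46 to 44.7 CPM in fast-growing PNs (0.04, SE 0.35, 0.955) and Nr1d1 at 123 to 216 CPM (-0.07, SE 0.33, 0.914). Of the 10 named rises all were tested here and 0 were called. Fh1 was called lower in fast- than in slow-growing PN (-0.74, SE 0.15, 0.0458), and Gfap, an intermediate filament of glia that was not called between slow-growing PN and control, was at 17.6 to 49.4 CPM in fast-growing PNs against a mean of 5.22 (2.47, SE 0.37, 0.0317).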

How the data were processed

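Total RNA was amplified (Ovation RNA-Seq System) and sequenced by the study. The authors deposited raw counts per gene, made per the labels and methods with CASAVA 1.4, FastQC 0.11.0, TopHat2 2.0.9 against mm10 and featureCounts 1.5.2, with edgeR 3.16.5 for scaling. Strand setting and annotation are not given in the sources used here. The table holds 24062 genes by symbol, with 0 unused columns. Totals of 9596773 to 13439253 counts per library set the precision, and reads without molecular identifiers are not independent molecules.

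The 8 libraries of both groups were fitted alone with edgeR 4.0.16 (R 4.3.3): filterByExpr, TMM factors, quasi-likelihood F test and Benjamini-Hochberg adjustment, called at an adjusted p under 0.05. The SE is the absolute log2 fold change divided by the square root of the F statistic, and is approximate. Levels are TMM-scaled CPM, whose values for different genes are not comparable because they are not divided by length. Fast-growing PNs were fitted against slow-growing PNs in the same way. Alternatives used DESeq2 1.42.0 and limma 3.58.1. The edgeR fit was run on simulated counts with 200 changed genes. Those counts held no tissue or transcript length differences shared between genes, so the run does not cover such differences. Lengths and positions came from GENCODE M21 on GRCm38, matched by symbol for 22750 genes and by older symbol for 934. Promoters came from RefSeq.

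The named genes were Nf1, the 10 largest called, non-overlapping rises and falls with an average log2 CPM of at least 3, the first 3 genes and up to 4 with the lowest p of 42 lists, and, of the genes called against control, the 5 with the lowest p between PN groups. Values are given for a part of these, chosen after they were seen. Some genes of the lists are not reported here by name. The comparison and lists were chosen with earlier results of these data known.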

Additional observations from a re-analysis of the deposited data

Results flagged for a closer look

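Within the 5 slow-growing PNs a library lay far from the other 4 in 30 of 188 values examined by Dixon's ratio (16%). The ratio flags about 1 in 20 groups by chance only where values are normally distributed. That was not tested for these CPM values on a linear scale, so the 16% does not show an excess. The values share libraries and are not independent. PN 1198A was highest in Chl1 (730 CPM), Postn (455), Sox2 (10.1), Kcnj10 (212), Csf1r (121), Tyrobp (30.4), H2-Aa (433), Dusp6 (74.2), Fkbp5 (133) and Cd74 (1050), and in the summed levels of immature and repair Schwann genes (1150 CPM), macrophage genes (1620) and MHC class II genes (1920). In the other 4 PNs the macrophage sum was 188 to 525 CPM and the MHC class II sum 177 to 570.

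PN 1206 was highest in Pecam1 (127 CPM), Plvap (7.07), Acta2 (473), Mup10 (0.191) and the endothelial (1040) and pericyte and smooth muscle (1520) sums, the latter against 344 to 479 CPM in the others. PN 1079 was highest in Cd3e (47.2 CPM), Top2a (54.6), Gbp2b (1.28), Myl3 (1.51), Hist1h2ak (2.26) and the lymphocyte sum (376 against 14.8 to 55.8), and lowest in Pfkl (19.2). PN 1203 was highest in L1cam (894 CPM) and lowest in Rgcc (17.0) and Dusp1 (17.6). PN 1202 was lowest in Grk4, at 204 CPM against 225 to 232.

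Fast- and slow-growing PNs differed by edgeR's test in 8 of the genes described, with log2 fold changes, fast over slow, of 1.64 for Oasl2, 1.21 for Tmprss5, 1.48 for Ifit1, -1.16 for Rgcc, 0.825 for Ttyh1, 2.47 for Gfap, 1.30 for Isg15 and -0.742 for Fh1. Of these, only Oasl2 was called in all 11 fits that left out 1 library. Isg15 and Fh1 were called in 3, and Gfap in 4.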

How the results depend on the processing

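The number of genes called (1769, with 648 higher and 1121 lower) was 3542 (1570 and 1972) by DESeq2, 3280 (1592 and 1688) with all 14 libraries in the fit, 565 (171 and 394) at an adjusted p under 0.01, 580 (199 and 381) by glmTreat against a fold of 1.5, and 0 (0 and 0) with muscle and adipocyte scores as covariates. That fit left 4 residual degrees of freedom in place of 6, and its lowest adjusted p was 0.102. With the length and GC trend removed it was 1123 (520 and 603). Leaving out 1 library gave 599 to 2454 genes, 210 to 915 higher and 389 to 1539 lower. Other scalings and filters, limma-voom and robust estimation gave 1561 to 1844. The number not overlapping was 3659, and 3658 by total-count scaling. Between fast- and slow-growing PN the 196 genes became 130 with RLE factors, 72 with upper-quartile factors, 1592 by DESeq2, 34 by limma-voom, 2 at an adjusted p under 0.01, 4 by glmTreat, 423 with all 14 libraries and 2 to 1194 without 1 library.

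Signs turned in genes near 0 or with a wide spread, and the cause was not tested. With both scores as covariates the log2 fold change of Postn was -0.0823, and it was 1.11 for Mup10, 3.76 for Cd3e, 0.11 for Isg15, 0.16 for Ckm, 1.36 for Adipoq, 0.76 for Mki67 and 1.41 for Top2a. With the trend removed it was 0.81 for Isg15, 0.023 for Dusp6 and 0.069 for Atp5b. It was -0.23 for Postn by limma-voom and 0.0012 for Dusp6 with all 14 libraries. Over the fits without 1 library it ranged from -0.49 (without 1198A) to 0.77 for Postn, from -0.092 (without DRG4) to 0.62 for Col1a1, which was -0.011 without 1206, from -0.25 to 0.15 for Isg15, above 0 without DRG4, 1202 or 1203, and from -0.78 (without 1198A) to 0.17 for Dusp6.

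No paired analysis was possible because the groups share no replicate numbers. Differences that were not called were not shown to be absent. Depth limits levels under 0.223 to 0.313 CPM, which 3 counts give in these libraries.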

Other observations

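Among the fast-growing PNs, library 1214 had 2.59 CPM of Xist and 0 CPM of Ddx3y, so that it showed neither pattern, while 1216 had 3300 CPM of Xist and the others 64.0 to 89.0 CPM of Ddx3y. In a principal component analysis of the 8 libraries, the first component took 50.4% of the variance and placed DRG3 at -11.4, between DRG4 (-75.6) and DRG5 (-92.7) on one side and the PNs (11 to 87.5) on the other. Spearman correlations across genes, which are not independent replicates, were 0.91 to 0.973 among controls, 0.86 to 0.964 among PNs and 0.766 to 0.957 between the groups.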
